A study of Mus musculus with 8 samples.

Results

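The genes described here are the 10 that make, cut and bind hyaluronan in the mouse: the synthases Has1, Has2 and Has3, the hyaluronidases Hyal1 and Hyal2, the depolymerases Cemip and Tmem2 (also called Cemip2), and the receptors Cd44, Stab1 and Lyve1. They were chosen by name for their role in hyaluronan biology, and all 10 of them were found among the 35539 Ensembl gene IDs of the table. RNA was measured in 8 bulk mammary tumors, 4 per genotype, from age-matched parous mice of mixed background. All 8 tumors arose with the Blg-Cre recombinase, which acts in mammary epithelium, floxed alleles of Brca1 (Brca1f/f) and a single intact copy of Trp53 (Trp53+/-). Tumors 1 to 4 carried nothing further and are called control. Tumors 5 to 8 also carried a human HMMR transgene at the Rosa26 locus on both chromosomes (HMMR Tg/Tg), which is silent until Cre acts, and are called HMMR-Tg. The labels give each tumor a number but do not tie tumors to mice, so p-values measure the spread between these tumors. The comparison asks how the genes that set the amount, the size and the sensing of hyaluronan stood in tumors formed with extra HMMR, itself a hyaluronan receptor.

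Hyaluronan is a long sugar polymer of the extracellular matrix. It is unusual among glycosaminoglycans in being spun out at the plasma membrane by membrane synthases, from the nucleotide sugars UDP-glucuronic acid and UDP-N-acetylglucosamine, without a protein core. Long chains swell and shield tissue, whereas short fragments made by hyaluronidases act as signals in wounds and tumors. In mammary tissue the polymer lies mostly in the stroma, and CD44 is the receptor best known on breast cancer cells, macrophages and T cells.

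The values are TPM, in which each gene is given as its part of the transcripts of a tumor, corrected for transcript length and scaled to a fixed total, so that levels can be set side by side between genes. The number of reads behind a value is lost in this unit, so depth is unknown. Between 21522 and 22336 genes were above 0 per tumor. The epithelial marker Epcam lay between 477.0 and 1924 TPM in the 8 tumors. Skeletal muscle markers were high in tumors 1, 3 and 6, where Acta1, the actin of skeletal muscle, stood at 98.7, 9.94 and 123.5 TPM against at most 0.685 TPM in the other 5 tumors. The table holds mouse genes only, so the human transgene cannot be checked in it. Mouse Hmmr was at 9.39, 15.15, 13.85 and 11.8 TPM in control tumors 1 to 4 and at 20.2, 13.04, 16.4 and 16.3 TPM in HMMR-Tg tumors 5 to 8. In bulk tissue, fewer cells of a type and less RNA per cell cannot be told apart.

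Promoter stretches from RefSeq (assembly GRCm38.p6) were at hand for 6 of the 10 genes, and 4 of them are shown: Hyal1 and Hyal2, because these neighbors on chromosome 9 stood at different levels, and Cd44 and Stab1, because they had the highest levels. Each line gives the 200 bases before the annotated start, on the strand of the gene. Capitals mark matches to the GC box (GGGCGG) or the CCAAT box (CCAAT) on either strand. The stretches are chr9:107576750-107576949 for Hyal1 and chr9:107568963-107569162 for Hyal2, both on the plus strand, and chr2:102901666-102901865 for Cd44 and chr14:31168642-31168841 for Stab1, both on the minus strand.
Hyal1: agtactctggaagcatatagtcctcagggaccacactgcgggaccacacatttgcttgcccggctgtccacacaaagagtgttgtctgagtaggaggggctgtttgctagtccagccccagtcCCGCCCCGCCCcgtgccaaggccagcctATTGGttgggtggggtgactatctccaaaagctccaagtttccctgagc
Hyal2: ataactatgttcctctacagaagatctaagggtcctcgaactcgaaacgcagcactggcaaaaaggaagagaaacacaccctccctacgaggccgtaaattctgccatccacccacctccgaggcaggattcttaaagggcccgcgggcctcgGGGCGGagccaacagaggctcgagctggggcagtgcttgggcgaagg
Cd44: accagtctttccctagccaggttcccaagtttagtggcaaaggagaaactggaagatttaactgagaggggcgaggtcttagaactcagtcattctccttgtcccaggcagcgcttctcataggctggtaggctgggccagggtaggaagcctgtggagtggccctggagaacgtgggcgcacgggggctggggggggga
Stab1: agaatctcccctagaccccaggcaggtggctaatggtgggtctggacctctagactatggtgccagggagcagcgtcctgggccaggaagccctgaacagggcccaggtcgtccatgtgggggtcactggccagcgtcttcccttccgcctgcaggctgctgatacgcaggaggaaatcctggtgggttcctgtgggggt
The Hyal1 stretch held 2 GC boxes, which start at -77 and -72 and share a base, and a CCAAT box at -49. In Hyal2 a single GC box was found at -47. No match to either motif was found in the Cd44 and Stab1 stretches, nor to the TATA box (TATAAA), the E-box (CACGTG), the AP-1 motif (TGANTCA) or the PU.1 motif (GAGGAAGT). Among 32851 promoters of the same length, 31.0% held the GC box, 29.3% the CCAAT box and 9.96% the TATA box. The E-box was held by 5.26%, the AP-1 motif by 5.48% and the PU.1 motif by 2.06%, so most promoters lack them.

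No member of the family passed the test between genotypes, and the genotypes overlapped for each of them. The test was limma on log2(TPM + 1) on genes whose mean reached 1 TPM, two-sided, with p-values adjusted by Benjamini-Hochberg over the 14835 genes tested. Of the 10 genes, 9 passed the filter, and Has3 was fitted without it. With an adjusted p under 0.05, 0 of 10 were called, where 0.0607% of all tested genes were (9 genes, all of them higher in HMMR-Tg tumors). At an unadjusted p under 0.05 the count was 1 of 10, Has2, beside 3.46% of all tested genes (1.62% higher and 1.83% lower in HMMR-Tg tumors). The adjusted p of limma was 0.9998 for each of the 9 tested members. In none of the 10 did the genotypes separate without overlap, a pattern seen in 2.23% of all tested genes. The mean was higher in HMMR-Tg tumors for 7 of the 10 and lower for 3, and 48.7% of all tested genes were higher. The filter left out Has3, whose difference was -0.61, and kept Lyve1 only through HMMR-Tg tumor 8, which shifts a median over tested members upward. With that limit, the median difference was 0.48 on the log2(TPM + 1) scale over the 9 tested members and -0.01 over all tested genes. On that scale a difference understates the change of genes near 1 TPM. An exact permutation test of 4 against 4 tumors has 70 arrangements and cannot go below p = 0.0286, and the lowest value among the members was 0.0857, for Lyve1.

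**Figure D1:**
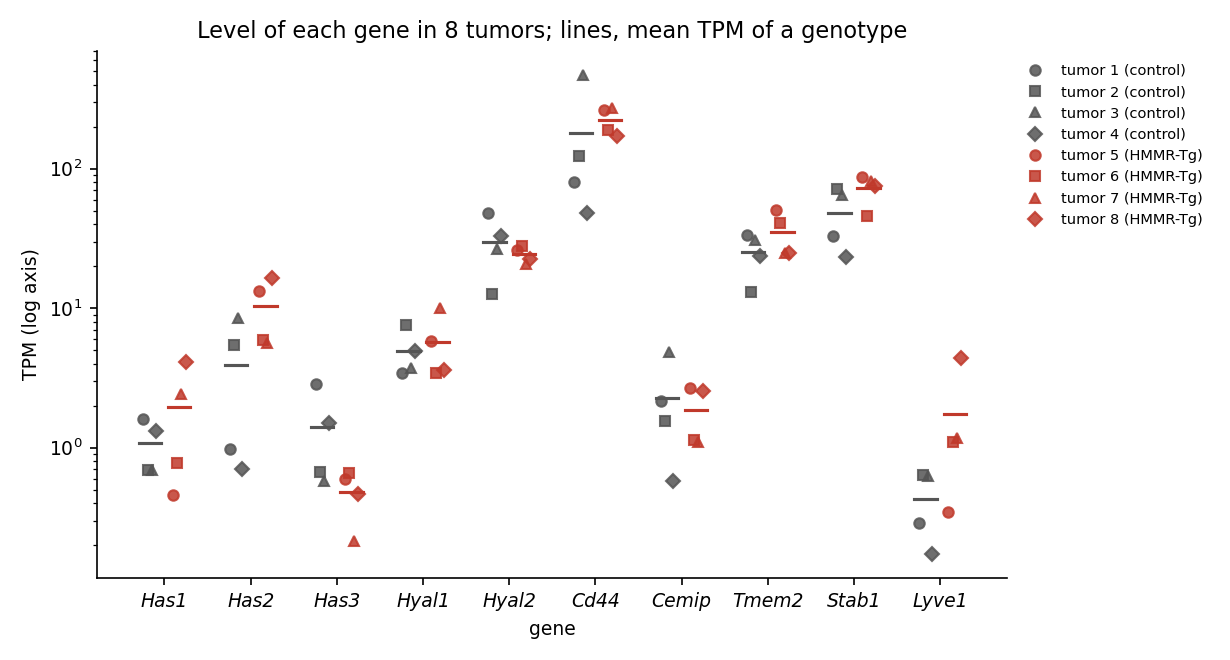
TPM of each of the 10 genes (log axis) in the 8 tumors, with a symbol per tumor, control in gray and HMMR-Tg in red, and lines at the mean of a genotype. Cd44 sat highest, with a median of 180.8 TPM, and Has3 and Lyve1 lowest, and the genotypes overlapped for every gene.

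The receptors Cd44 and Stab1 were the most abundant of the family, followed by the depolymerase Tmem2 and the hyaluronidase Hyal2, and the synthases stood well below them. By median over the 8 tumors the order was Cd44 at 180.8 TPM, Stab1 at 68.0, Tmem2 at 27.8, Hyal2 at 26.3, Has2 at 5.815, Hyal1 at 4.32, Cemip at 1.855, Has1 at 1.05, Has3 at 0.6305 and Lyve1 at 0.629. The ranges of every pair of neighbors in this order overlapped. Within a tumor, Cd44 was above Stab1 in 8 of 8 tumors and Hyal2 above Has2 in 8 of 8. Hyal1 was above Cemip in 7, and Stab1 was above Tmem2 and Tmem2 above Hyal2 in 6 each. The order was weak for Cemip above Has1 and for Has1 above Has3, each seen in only 5 of 8 tumors. Neighbors that could not be ordered were Has2 and Hyal1, with Has2 above in 4 of 8 tumors, and Has3 and Lyve1, with Has3 above in 4 of 8.

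Among the synthases, Has2 had the highest mean in both genotypes and the widest spread, and Has1 and Has3 averaged under 2 TPM in both. Has2 (mm9 chromosome 15, 56497182 to 56526094, minus strand) encodes the synthase required for heart development in the mouse embryo and a main source of long chains in stromal cells. In control tumors 1 to 4 it was at 0.976, 5.42, 8.50 and 0.6995 TPM, and in HMMR-Tg tumors 5 to 8 at 13.27, 5.97, 5.66 and 16.4 TPM. Tumors 1 and 4 were under 1 TPM and tumors 5 and 8 above 13 TPM, while the other 4 tumors of both genotypes lay together between them, so that the ranges overlapped in tumors 3, 6 and 7. The means were 3.90 ± 3.755 TPM in control against 10.3 ± 5.35 TPM in HMMR-Tg tumors (SD, n = 4 each). The difference was 1.45 (SE 0.60, 95% interval 0.11 to 2.80) on the log2(TPM + 1) scale, with an unadjusted limma p of 0.0371, an adjusted limma p of 0.9998 and an exact permutation p of 0.1143. It did not pass the test. Has2 has an antisense neighbor in the mouse genome, and since neither source states whether counting used strand, reads of the pair may not be told apart.

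Has1 (chromosome 17, 17980292 to 17992152, minus strand) encodes the least active of the synthases. The levels were 1.60, 0.697, 0.697 and 1.32 TPM in control tumors and 0.455, 0.779, 2.44 and 4.14 TPM in HMMR-Tg tumors, with means of 1.08 ± 0.454 and 1.95 ± 1.695 TPM (SD, n = 4 each). Tumors 7 and 8 were above every control tumor, and tumor 5 was below all of them. The difference of 0.35 (SE 0.43, interval -0.61 to 1.305) had an exact permutation p of 0.4571, and without tumor 8 it was 0.02. The highest and the lowest Has1 value of the series were thus both in HMMR-Tg tumors.

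Has3 (chromosome 8, 109394142 to 109406802, plus strand) encodes the synthase that makes shorter chains and is the form typical of keratinocytes. In contrast to Has2 it was highest in control tumors 1 and 4, at 2.88 and 1.503 TPM, and stood at 0.6675 and 0.578 TPM in control tumors 2 and 3. The HMMR-Tg tumors had 0.598, 0.663, 0.214 and 0.466 TPM. Every HMMR-Tg tumor was below tumors 1, 2 and 4, and tumor 3 lay among them. With a mean under 1 TPM it was fitted without the filter, and the difference of -0.61 (SE 0.30, interval -1.29 to 0.07) had an unadjusted limma p of 0.0736 and an exact permutation p of 0.1143. Without tumor 1 it was -0.35. The means were 1.41 ± 1.07 and 0.485 ± 0.199 TPM (SD, n = 4 each).

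The share of each synthase in their summed TPM showed which of them prevailed. Has2 took 79.9% and 87.0% of the sum in control tumors 2 and 3, and 92.7%, 80.5%, 68.1% and 78.1% in the HMMR-Tg tumors. Tumors 1 and 4 were the exceptions, with Has2 shares of 17.9% and 19.8% and Has3 first at 52.8% and 42.7%. The summed level was 5.45, 6.79, 9.78 and 3.525 TPM in control against 14.3, 7.41, 8.31 and 21.0 TPM in HMMR-Tg tumors, or 6.39 ± 2.63 against 12.8 ± 6.28 TPM (SD, n = 4 each), as a description without a test. Tumors 5 and 8 alone were above the highest control tumor, and both owed this to Has2. The coding sequences of the synthases in the mm9 annotation were 64.3% (Has1 and Has2), 69.2% (Has1 and Has3) and 70.02% (Has2 and Has3) identical over aligned bases, and the longest identical stretch was 23 bases, so that coding reads longer than this differ between them.

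**Figure D2:**
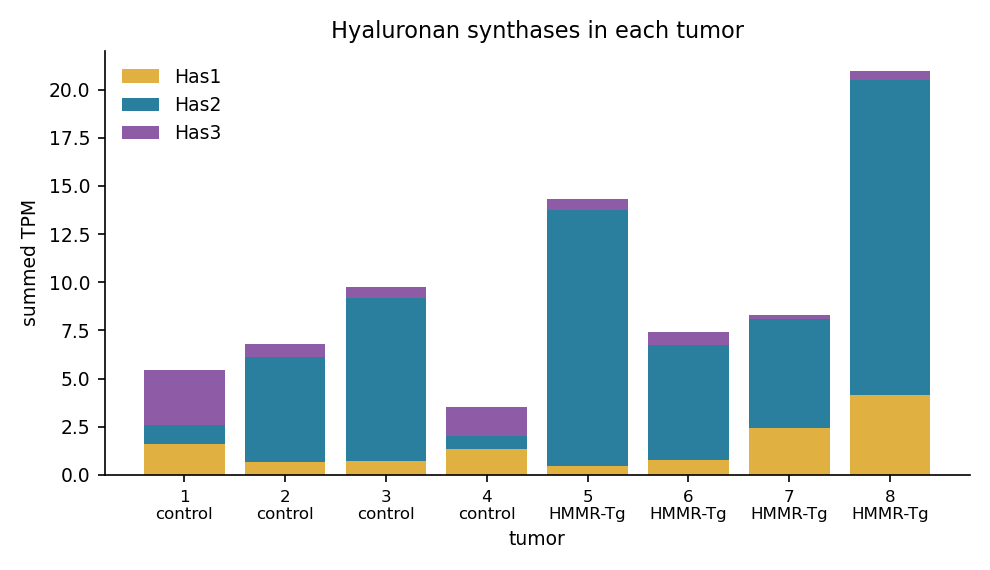
Summed TPM of the 3 synthases in each of the 8 tumors, with the parts of Has1, Has2 and Has3 stacked from 0. Has2 is the largest part in 6 tumors, and Has3 is the largest in control tumors 1 and 4, which have the lowest sums.

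Hyal2 was the more abundant of the hyaluronidases in every tumor, and for neither enzyme was the difference between genotypes larger than the spread of the tumors. Hyal2 cuts long chains into intermediate fragments and is held at the cell surface by a lipid anchor, and Hyal1, in lysosomes, cuts those into small pieces. The genes lie next to each other on chromosome 9, Hyal2 at 107471448 to 107475107 and Hyal1 at 107479258 to 107485174 (mm9, plus strand). Hyal2 stood at 48.1, 12.7, 26.4 and 33.1 TPM in control tumors and at 26.2, 28.1, 20.7 and 22.45 TPM in HMMR-Tg tumors. The 4 HMMR-Tg tumors lay close together, inside the range set by control tumors 2 and 1. The means were 30.1 ± 14.7 and 24.4 ± 3.395 TPM (SD, n = 4 each), and the difference of -0.16 (SE 0.36, interval -0.97 to 0.65) had an exact permutation p of 0.7143. Without tumor 1 its sign turned, at 0.11.

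Hyal1 was at 3.43, 7.59, 3.73 and 4.91 TPM in control tumors and at 5.78, 3.44, 10 and 3.62 TPM in HMMR-Tg tumors. Tumors 7 and 2 were highest, a tumor of each genotype, and the other 6 stayed between 3.43 and 5.78 TPM. The means of 4.91 ± 1.90 and 5.71 ± 3.05 TPM (SD, n = 4 each) differed by 0.13 (SE 0.37, interval -0.69 to 0.95), with an exact permutation p of 0.7143. The sign turned without tumor 7, at -0.14. The ratio of Hyal2 to Hyal1 ran from 1.67 in tumor 2 to 14.0 in tumor 1, with a median of 6.47. The coding sequences of the pair were 64.3% identical and shared no stretch over 14 bases, although the promoter stretches printed above both hold a GC box.

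Of the depolymerases, Tmem2 was far above Cemip in each tumor. Cemip is a secreted protein needed for hyaluronan breakdown in skin fibroblasts and brain, and Tmem2 is a related transmembrane protein for which cell surface hyaluronidase activity has been described in the mouse. Tmem2 (chromosome 19, 21852832 to 21932817, plus strand) stood at 33.5, 13.1, 30.6 and 23.6 TPM in control and at 50.4, 41.1, 24.9 and 24.75 TPM in HMMR-Tg tumors. Tumors 5 and 6 exceeded all control tumors, whereas tumors 7 and 8 were below control tumors 1 and 3. The means were 25.2 ± 9.07 and 35.3 ± 12.7 TPM (SD, n = 4 each), with a difference of 0.48 (SE 0.35, interval -0.30 to 1.27) and an exact permutation p of 0.2571. Leaving out a single tumor gave 0.21 (without tumor 2) to 0.64 (without tumor 1).

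Cemip (chromosome 7, 91081367 to 91235012, minus strand, named 9930013L23Rik in the mm9 annotation) was at 2.15, 1.56, 4.88 and 0.5785 TPM in control and at 2.68, 1.14, 1.11 and 2.56 TPM in HMMR-Tg tumors. Both the highest and the lowest tumor were control. The means of 2.29 ± 1.84 and 1.87 ± 0.865 TPM (SD, n = 4 each) differed by -0.08 (SE 0.43, interval -1.04 to 0.87), with an exact permutation p of 0.80, and the sign turned without tumor 3, at 0.25, as well as without tumor 6 or 7. Tmem2 exceeded Cemip by 6.27 to 40.7 times, with a median of 17.2. Their coding sequences were 64.3% identical, with no shared stretch over 13 bases.

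Cd44 had the highest level of the family and a far wider spread in control than in HMMR-Tg tumors. CD44 is a transmembrane receptor that anchors hyaluronan to the cell and links it to the actin skeleton, and it is made in many splice forms, which a value per gene cannot separate. The gene (chromosome 2, 102651298 to 102741822, minus strand) was at 80.8, 122, 472 and 48.4 TPM in control tumors and at 264, 190.3, 272 and 171 TPM in HMMR-Tg tumors. Tumor 3 was the highest of all, and control tumors 1, 2 and 4 were the 3 lowest, so that the HMMR-Tg tumors lay inside the control range but above 3 of its 4 tumors. The means were 180.9 ± 196 and 224.5 ± 51.2 TPM (SD, n = 4 each). The difference was 0.84 (SE 0.59, interval -0.48 to 2.15), with an unadjusted limma p of 0.186 and an exact permutation p of 0.3143. It was 1.48 without tumor 3, 0.39 without tumor 4 and 1.57 without tumors 1, 3 and 6, those with the most skeletal muscle RNA. The SD on the log2 scale was 1.40 among control against 0.33 among HMMR-Tg tumors, a difference in spread that was not tested.

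Stab1 followed the pattern of Cd44 in its lowest tumors. It encodes stabilin-1, a scavenger receptor of macrophages and sinusoidal endothelium, related to stabilin-2, the clearance receptor for hyaluronan in liver. Stab1 (chromosome 14, 31952199 to 31981827, minus strand) was at 32.85, 71.6, 64.4 and 23.3 TPM in control and at 86.6, 46.2, 82.3 and 75.8 TPM in HMMR-Tg tumors. Tumors 5, 7 and 8 were above every control tumor, and tumor 6 lay between control tumors 1 and 3. The means were 48.0 ± 23.6 and 72.7 ± 18.2 TPM (SD, n = 4 each), with a difference of 0.69 (SE 0.38, interval -0.15 to 1.53), an unadjusted limma p of 0.0985 and an exact permutation p of 0.1714. Without tumor 4 the difference was 0.40. Stab2 was at most 0.185 TPM in any tumor, and its coding sequence is 62.7% identical to Stab1 with no shared stretch over 16 bases.

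Markers of macrophages and of endothelium, both known to carry Stab1, were present in all tumors. Of the 10 macrophage markers, among them Adgre1, Csf1r and C1qa, all were tested, 9 were higher on average in the HMMR-Tg group, none passed the test, and the median difference was 0.24. Their summed level ranged from 658.7 to 2050 TPM in control and from 990.2 to 1735 TPM in HMMR-Tg tumors, with none listed at 0. Across the 8 tumors Stab1 and the mean of these markers on the log2 scale had Pearson r = 0.81 (exact permutation p = 0.0153, adjusted over 90 pairs of a gene and a marker list 0.4879) and Spearman rho = 0.48 (exact permutation p = 0.2431, adjusted 0.8752). Without tumors 2 and 4, the farthest from the median marker score, r was 0.54. Tumors 1 and 4 were the lowest for both Stab1 and this score, at scores of 5.26 and 4.71. The r without these tumors was not taken, so how far the value over 8 tumors depends on them was not tested. Against the blood endothelial score, whose 8 markers were all higher on average in the HMMR-Tg group, Stab1 had r = 0.49 (exact permutation p = 0.219, adjusted 0.576), rho = 0.64 (exact permutation p = 0.0962, adjusted 0.6659) and r = 0.39 without tumors 1 and 8. The part of macrophages and vessels in the Stab1 difference was not tested.

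Lyve1 was the lowest receptor, and its HMMR-Tg mean was carried by tumor 8. LYVE-1 is a hyaluronan receptor of lymphatic endothelium and of a class of tissue macrophages that lie along vessels. The gene (chromosome 7, 117994121 to 118006467, minus strand) was at 0.289, 0.635, 0.623 and 0.1735 TPM in control tumors and at 0.3465, 1.11, 1.18 and 4.365 TPM in HMMR-Tg tumors. Tumors 6, 7 and 8 were above every control tumor, and tumor 5 lay between control tumors 1 and 3. It passed the filter only through tumor 8. The means were 0.4301 ± 0.2344 and 1.75 ± 1.78 TPM (SD, n = 4 each), and the difference of 0.76 (SE 0.42, interval -0.18 to 1.70) had an unadjusted limma p of 0.101 and an exact permutation p of 0.0857. Without tumor 8 the difference of the means on the log2 scale was 0.375. Stab1 exceeded Lyve1 by 17.4 times in tumor 8 and by 249.9 times in tumor 5, with a median of 108.

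The lists of lymphatic and of perivascular macrophage markers each held genes near 0 and genes at higher levels. Of 6 lymphatic markers 5 were in the table, with summed levels of 7.45 to 39.2 TPM in control against 12.9 to 47.7 TPM in HMMR-Tg tumors. Prox1, the transcription factor that defines lymphatic endothelium, was at most 0.399 TPM and Mmrn1 at most 0.193 TPM, and both were listed at 0 in tumor 4. Of the same list, Pdpn was at 4.85 to 44.06 TPM, Flt4 at 1.32 to 3.28 TPM and Reln at 0.19 to 14.87 TPM. The lymphatic score and Lyve1 had r = 0.13 over the 8 tumors (exact permutation p = 0.7443, adjusted over 90 pairs 0.923), rho = 0.12 (exact permutation p = 0.793, adjusted 0.9784) and r = 0.70 without tumors 3 and 4. The markers of perivascular macrophages, with Folr2, Cd163 and Mrc1 among 7, summed to between 127.6 and 401.4 TPM in control and between 58.4 and 212 TPM in HMMR-Tg tumors. Most of that sum in tumors 1, 2 and 4 was Gas6, at 235.3, 172.3 and 386.8 TPM there, against 27.25 TPM in tumor 3 and 16.9, 76.6, 29.2 and 62.2 TPM in the HMMR-Tg tumors, with a difference of -1.85 (SE 0.77, unadjusted limma p = 0.0381, adjusted limma p = 0.9998, exact permutation p = 0.1429). Timd4, also on the perivascular list, was at most 0.217 TPM and was not tested. Of the 6 tested markers of this list, 4 had a higher and 2 a lower mean in HMMR-Tg tumors, with a median difference of 0.43, and Folr2 (0.61), Cd163 (0.47) and Mrc1 (0.39) were among the 4. Against their score Lyve1 had r = 0.77 (exact permutation p = 0.0262, adjusted 0.4879) and rho = 0.69 (exact permutation p = 0.0694, adjusted 0.6232), and r = 0.09 without tumors 4 and 8.

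Markers of vessels and fibroblasts were set beside Lyve1 as well, and no relation passed the adjusted test. All 8 blood endothelial markers were higher on average in the HMMR-Tg group, 3 of them (Pecam1, Cdh5 and Emcn) with an unadjusted limma p under 0.05 and no overlap of the genotypes, beside 48.7%, 1.62% and 2.23% of all tested genes with a higher mean, with such a p and without overlap. Their sum was 88.7 to 126.6 TPM in control against 124.7 to 254.1 TPM in HMMR-Tg tumors. None of the 8 passed the adjusted test. The blood endothelial score and Lyve1 had r = 0.85 (exact permutation p = 0.0282, adjusted over 90 pairs 0.4879), rho = 0.55 (exact permutation p = 0.171, adjusted 0.7693) and r = 0.12 without tumors 1 and 8. Of the 8 fibroblast markers, 7 had a higher and 1 a lower mean in the HMMR-Tg group, with a median difference of 0.50, 0 had an unadjusted limma p under 0.05, and Pdgfrb alone had no overlap. For these markers, whose sum was 237.6 to 1076 TPM in control against 461.3 to 2226 TPM in HMMR-Tg tumors, the values were r = 0.815 (exact permutation p = 0.0161, adjusted 0.4879), rho = 0.74 (exact permutation p = 0.0458, adjusted 0.6232) and r = 0.24 without tumors 4 and 8. Both values of r thus depended on tumor 8 and the tumor left out with it. Those tumors were at the ends of the range of each score. Leaving them out can lower r by itself and cannot show that a relation is absent. The part of these cell types in the Lyve1 difference was not tested, and with 4 tumors per genotype no correlation was taken within a genotype.

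**Figure D3:**
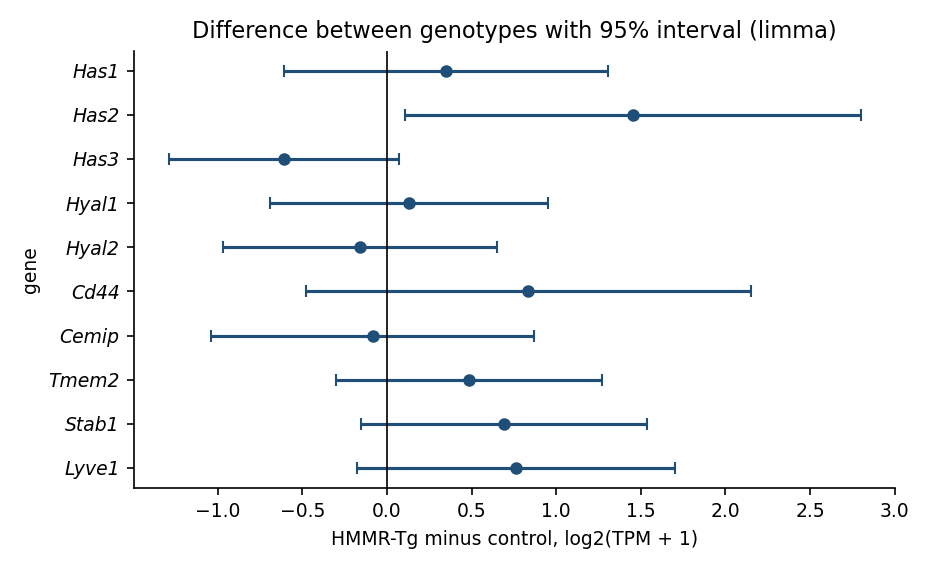
Difference in mean log2(TPM + 1) between 4 HMMR-Tg and 4 control tumors for each gene (points) with the 95% interval of limma (bars, Has3 from the fit without the filter). The interval of Has2, 0.11 to 2.80, is the only one that leaves out 0, and no gene passed the adjusted test.

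The members varied between tumors more than most genes did, Has2 and Cd44 above all. Over the 8 tumors the SD of log2(TPM + 1) was 1.21 for Has2 and 1.04 for Cd44, more than in 94.5% and 91.3% of all tested genes. Lyve1 (0.70), Stab1 (0.67), Has1 (0.62), Cemip (0.59), Tmem2 (0.57), Hyal2 (0.53), Has3 (0.53) and Hyal1 (0.49) followed. For the tested members among these the share of genes with a smaller SD ran from 59.1% for Hyal1 to 78.8% for Lyve1. The lowest and highest Has2 values were 23.4 times apart, those of Lyve1 25.2 times and those of Hyal1 only 2.92 times. The spread also differed by genotype without a common direction: the SD of Hyal2 was 0.77 among control against 0.19 among HMMR-Tg tumors, and that of Lyve1 0.24 against 0.84.

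Control tumors 1 and 4 stood together at one end of the range for 6 of the 10 genes. They had the lowest Has2, Cd44, Stab1 and Lyve1 levels of all 8 tumors and the highest Has3 and Hyal2 levels. Relative to its mean over the 8 tumors on the log2(TPM + 1) scale, Has2 lay at -1.66 and -1.88 in tumors 1 and 4, and Cd44 at -1.02 and -1.75. Has3 lay at 1.09 and 0.46, and Hyal2 at 0.88 and 0.355. The other 4 genes did not set them apart: Cemip lay at 0.14 and -0.855, Tmem2 at 0.23 and -0.255, Has1 at 0.17 and 0.01 and Hyal1 at -0.43 and -0.02. Tumor 1 was among the tumors rich in muscle RNA and tumor 4 was not, with skeletal muscle scores of 4.715 and 0.40. Their macrophage marker scores, 5.26 and 4.71, were the lowest of the 8, and those of the other 6 tumors lay between 5.48 and 5.99. Not every marker of that list followed its score: in tumor 1, Mrc1 and Cd163 were above some HMMR-Tg tumors. The part of macrophages in the levels of the 6 genes was not tested.

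**Figure D4:**
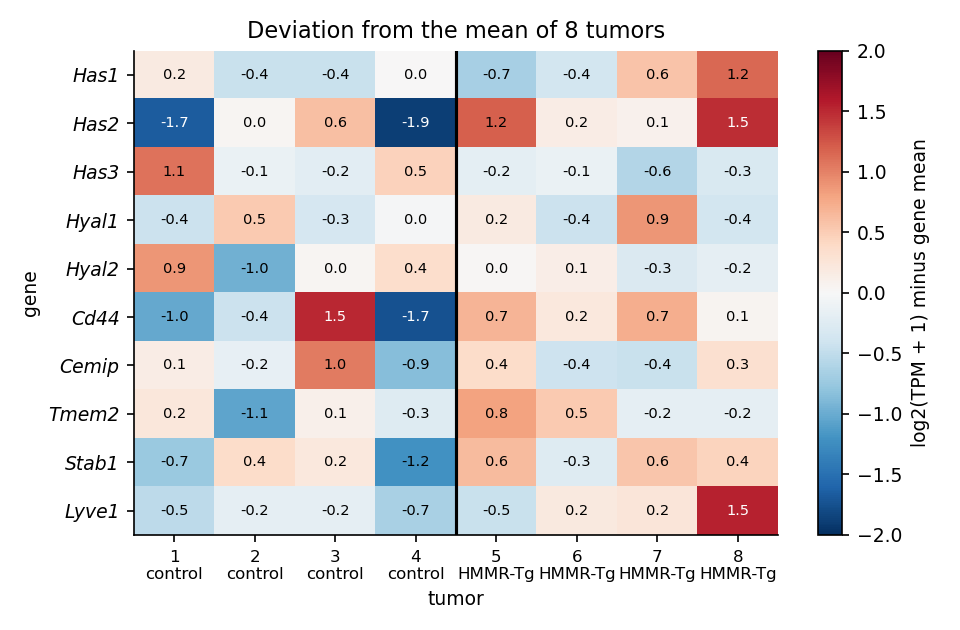
Deviation of each gene from its own mean over the 8 tumors on the log2(TPM + 1) scale, in blue below and in red above, with control tumors left and HMMR-Tg tumors right of the line. Tumors 1 and 4 are the lowest for Has2 and Cd44, and tumor 8 is the highest for Has1, Has2 and Lyve1.

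No relation between members passed after adjustment, and the values of r depended on which tumors were included. Over 45 pairs of members, 8 had an exact permutation p under 0.05 for Pearson r across the 8 tumors, and 0 after adjustment (lowest adjusted p 0.2154 for r and 0.3903 for rho). Of the 8, 7 joined Has2, Has3, Hyal2, Cd44 or Stab1 to each other, genes in which tumors 1 and 4 stand apart. Lyve1, in which they stand apart too, was in none of these 7 pairs. No r over 8 tumors is therefore given for pairs with Has2 or Has3, and r was taken over the other 6 tumors, a choice made after the values were seen. Since tumors 1 and 4 are at the ends of the range of these genes, leaving them out can lower r by itself. Values over 6 tumors therefore cannot show that a relation is absent. Over these 6 tumors Has2 and Stab1 had r = 0.41 (exact permutation p = 0.4417) and rho = 0.26 (exact permutation p = 0.6583), and Has2 and Cd44 had r = 0.125 (exact permutation p = 0.8194) and rho = 0.14 (exact permutation p = 0.8028). For Has2 and Has3, r was 0.06 (exact permutation p = 0.9667) and rho was -0.37 (exact permutation p = 0.4972). None of the 10 pairs of these 5 genes passed over the 6 tumors, with adjusted p-values of 0.9888 or more for r and 0.8287 or more for rho.

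Cd44 and Stab1 had r = 0.78 over the 8 tumors (exact permutation p = 0.0202, adjusted over 45 pairs 0.2154) and rho = 0.62 (exact permutation p = 0.115, adjusted 0.4312). Their r was 0.75 without tumors 3 and 4, the farthest from the median of Cd44, and 0.07 without tumors 1 and 4, the lowest for both genes. The value over 8 tumors thus depends on tumors 1 and 4, and leaving them out also narrows the range. The remaining pair was Has1 and Lyve1, with r = 0.73 (exact permutation p = 0.0422, adjusted 0.2423) and rho = 0.405 (exact permutation p = 0.3268, adjusted 0.5998). Without tumors 7 and 8, where both genes were above every control tumor, r was -0.47.

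For each tested member, the genes most like it over the 8 tumors were taken by Pearson r of log2(TPM + 1) against 12879 genes with a symbol, as a description with no p. Among so many genes and so few tumors, values of r above 0.9 are reached for every member. Has2 was followed most closely by Rap2b (0.98), Col15a1 (0.97) and Pdcd6 (0.96), and Has1 by Prnp (0.97), Eef1akmt3 (0.96) and Acadsb (0.95). For Hyal1 these were Cd3e (0.97), Afmid (0.96) and Psmd10 (0.94), and for Hyal2 they were Dtd1 (0.97), Sorbs3 (0.96) and Ipo4 (0.96). Cemip was closest to Mrpl13 (0.97), Pmpca (0.96) and Hk1 (0.96), and Tmem2 to Cops5 (0.965), Setdb1 (0.96) and Ppid (0.95). Among the receptors, Cd44 was closest to Rnf149 (0.96), Ifitm3 (0.96) and Arhgap42 (0.96), Stab1 to Pdlim1 (0.975), Stk17b (0.97) and P2ry13 (0.96), and Lyve1 to Nrp1 (0.97), Myadm (0.97) and Ndufs6 (0.96). No gene was among the closest 3 of more than 1 member.

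Of the wider hyaluronan pathway, in lists written from general knowledge, 0 genes passed the adjusted limma test. Only 1 tested gene, Mmp9, had an unadjusted limma p under 0.05, beside 3.46% of all tested genes. Precursor supply, the enzymes that make the nucleotide sugars and the transporter Slc35d1, had 10 of 10 genes tested. Of these, 4 had a higher and 6 a lower mean in HMMR-Tg tumors, with a median difference of -0.05 on the log2 scale. The largest statistics were those of the N-acetylglucosamine kinase Nagk at -0.25 (SE 0.26), which was -0.11 without tumor 8, and of Gfpt1, which begins the hexosamine pathway, at 0.22 (SE 0.33). Of 8 other hyaluronidases and lysosomal glycosidases, 4 were tested, 2 in each direction, and Hyal4, Hyal5 and Spam1 were listed at 0 in every tumor. Hexa, a subunit of lysosomal hexosaminidase, had 46.8 ± 10 TPM in control against 64.9 ± 11.6 TPM in HMMR-Tg tumors (SD, n = 4 each), a difference of 0.47 (SE 0.23, exact permutation p = 0.0857). The minor hyaluronidase Hyal3 differed by -0.21 (SE 0.28), and by -0.03 without tumor 1.

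Of 17 matrix proteins that bind hyaluronan, 7 were tested, 4 with a higher and 3 with a lower mean, and the median difference was 0.16. The link protein Hapln3 had 5.40 ± 5.01 TPM in control against 1.67 ± 1.425 TPM in HMMR-Tg tumors (SD, n = 4 each), a difference of -1.13 (SE 0.56, exact permutation p = 0.1714) that was -0.67 without tumor 1. Tnfaip6, whose product TSG-6 ties heavy chains to hyaluronan, was at 0.717, 1.86, 1.23 and 0.704 TPM in control and at 0.9035, 0.714, 7.97 and 31.2 TPM in HMMR-Tg tumors. Its difference of 1.415 (SE 0.84, exact permutation p = 0.3143) was 0.57 without tumor 8, and tumors 5 and 6 were within the control range. Of 6 other receptors 5 were tested, 4 with a higher and 1 with a lower mean, with a median of 0.37. Hmmr itself, the mouse gene, had 12.5 ± 2.52 and 16.5 ± 2.94 TPM (SD, n = 4 each), a difference of 0.37 (SE 0.24, exact permutation p = 0.0857), and whether transgene reads count toward it was not tested. The toll-like receptor gene Tlr4, for which hyaluronan fragments have been described as ligands, differed by -0.62 (SE 0.36, exact permutation p = 0.2286), and by -0.39 without tumor 7.

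The 11 genes around CD44 were its cytoskeletal linkers, the proteases that cut it, the factors that splice it and the secreted ligand Spp1. They had 6 higher and 5 lower means and a median difference of 0.23. At an unadjusted limma p under 0.05, 1 of them was higher, Mmp9, beside 1.62% of all tested genes. Mmp9, a gelatinase that docks on CD44, was at 2.68, 10.8, 6.32 and 1.92 TPM in control and at 15.1, 6.33, 8.42 and 17.1 TPM in HMMR-Tg tumors. As for Has2, tumors 1 and 4 were lowest and tumors 5 and 8 highest. The difference was 1.11 (SE 0.49, unadjusted limma p = 0.0472, adjusted limma p = 0.9998, exact permutation p = 0.1143). Mmp14, a membrane protease that sheds CD44, had 110.7 ± 34.1 TPM in control against 163.3 ± 28.6 TPM in HMMR-Tg tumors (SD, n = 4 each), a difference of 0.60 (SE 0.28, exact permutation p = 0.0571) that was 0.35 without tumor 4.

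**Figure D5:**
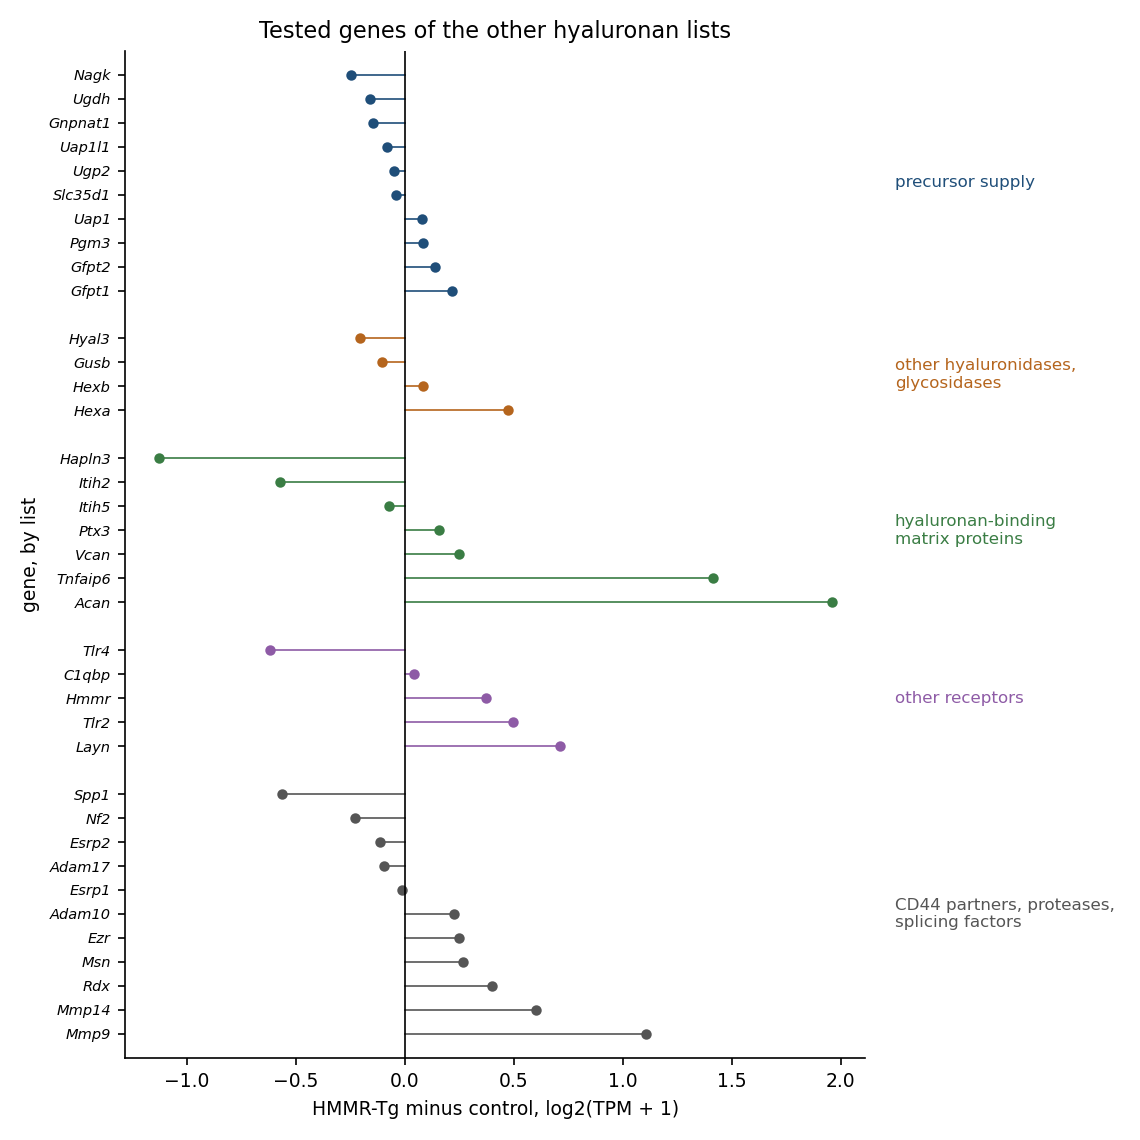
Difference in mean log2(TPM + 1), HMMR-Tg minus control, for each tested gene of 5 lists of the wider hyaluronan pathway. The points farthest from 0 are Acan at 1.96, Tnfaip6 at 1.415, Hapln3 at -1.13 and Mmp9 at 1.11, and none passed the adjusted test.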

How the data were processed

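RNA of 8 tumors was read from a single deposited table of gene-level TPM, made by the authors, with 1 column per tumor, and groups came from the labels. The columns sum to between 994000.9 and 994984.0. The sources disagree on the route: the study's methods name single-end reads, Kallisto and tximport, and the submitters' notes name STAR 2.4.0f1, SAMtools 0.1.18 and bedtools, both with mm9. It was not settled which gave the TPM values, which matters for genes with near-identical copies.

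Symbols and mm9 coordinates came from GENCODE M1 by Ensembl ID, with newer RefSeq symbols, for 25388 of 35539 IDs. Genes whose mean reached 1 TPM were tested two-sided with limma 3.58.1 under R 4.3.3, on log2(TPM + 1) and with a trend between mean and variance. Benjamini-Hochberg adjustment covered all tested genes, and the threshold was 0.05. A count test was not run, since TPM holds no counts. Single genes had an exact permutation test over 70 arrangements, and correlations over 8 tumors one over 40320 pairings. The fit was tested on simulated data with planted log2 differences. At a difference of 1 it recovered 4 of 50 planted genes, at 1.5 18 of 50, at 2 33 of 50 and at 3 41 of 50. Differences of the size seen for the members, at most 1.45, would thus be missed more often than found.

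The text names the 10 members, the mouse gene Hmmr, from each pathway list the genes with an unadjusted p under 0.05 and the 2 with the smallest, and the 3 genes most like each member, passing over predicted genes and pseudogenes. The members and lists were chosen with earlier results of these data known. As alternatives, the pseudocount was set to 0.1 or 5, the filter was dropped or raised to 5 TPM, quantile and median-of-ratios scaling, other moderation and array weights were used, and each tumor was left out. Leaving out tumors 1, 3 and 6 together was decided once the values had been seen. Coding identity was computed from GENCODE M1 transcripts with Biopython 1.88, in place of a planned protein comparison that was not run. Tables, permutations and figures were made in Python 3.11.15 with scipy 1.17.1, numpy 2.4.6, pandas 2.3.3 and matplotlib 3.10.9.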

Additional observations from a re-analysis of the deposited data

Results flagged for a closer look

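Of 40 groups of 4 tumors checked (each named gene in each genotype), 1 held a tumor far from the rest, where chance alone gives about 1 in 20. Gfpt1, the first enzyme of the hexosamine pathway, was at 50.39 TPM in HMMR-Tg tumor 8, and the other HMMR-Tg tumors lay between 31.1 and 33.1 TPM. The control tumors ranged from 17.6 to 52.5 TPM, so tumor 8 lay inside their range.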

How the results depend on the processing

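No member passed the adjusted limma test in any alternative setting, of which each member had 16 to 18. Over all members and settings together this gave 174 values, 166 of which kept the direction of the difference and 8 of which reversed it. Hyal1 turned to -0.14 without tumor 7 and to -0.023 without tumors 1, 3 and 6. Hyal2 turned to 0.11 without tumor 1 and to 0.15 without tumors 1, 3 and 6. Cemip turned to 0.25 without tumor 3, 0.04 without tumor 6, 0.05 without tumor 7 and 0.59 without tumors 1, 3 and 6. Outside the family, Gfpt1 turned to -0.036 without tumor 2 (up to 0.47 without tumor 4) and Nagk to 0.085 without tumors 1, 3 and 6. The cause was not tested. With single tumors left out, the differences ranged from 1.07 to 1.90 for Has2, 0.02 to 0.63 for Has1, -0.78 to -0.35 for Has3, -0.14 to 0.33 for Hyal1, -0.51 to 0.11 for Hyal2, -0.38 to 0.25 for Cemip, 0.21 to 0.64 for Tmem2, 0.39 to 1.48 for Cd44 and 0.40 to 0.93 for Stab1. Lyve1 had 0.67 to 1.04 and no limma value without tumor 8, where its mean fell under the filter. With a mean of at least 5 TPM, Has1, Has3, Cemip and Lyve1 had no value. The lowest adjusted p of any alternative was 0.5275, for Cd44, and 0.6264 for Has2. The Has2 difference was 1.89 with a pseudocount of 0.1 and 0.81 with 5. Over all genes, 9 passed, 3 without tumors 1, 3 and 6, which leaves fewer samples, and 6 to 10 otherwise. No paired analysis was possible because the tumors are numbered 1 to 8 and the genotypes share no number. The depth behind the TPM values is unknown.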

Other observations

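Tumor 8 had the highest RNA level of Acan, Layn and Vcan, genes of the hyaluronan lists that the naming rule did not pick. They were chosen after their values were seen. Further genes of these lists, Ptx3 and Spp1 among them, were also highest in tumor 8, and not all are named here. Acan, the aggregating proteoglycan of cartilage, was at 144.9 TPM in tumor 8 and 24.0 TPM in tumor 5, against 4.78 TPM or less in the other 6 tumors. Layn, the hyaluronan receptor layilin, was at 43.8 TPM in tumor 8 and between 1.02 and 8.77 TPM elsewhere. Vcan, versican, was at 253.9 TPM in tumor 8 and between 34.3 and 124.7 TPM in the others. Not all genes of these lists were high there: Hapln3 was at its lowest in tumor 8, at 0.463 TPM. Itih2 was at 6.24 TPM in tumor 8 against 18.2 TPM in tumor 4, and Itih5 at 4.28 TPM against 18.7 TPM in tumor 1. Tumor 8 also had the highest summed fibroblast markers (2226 TPM), and the highest Has1, Has2 and Lyve1. The part of fibroblasts in these values was not tested. Acan, Layn and Vcan did not pass the exact permutation test between genotypes (p = 0.3429 for Acan, 0.5429 for Layn and 0.7143 for Vcan).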
